A study of Mus musculus with 6 samples.

Results

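Interferon-stimulated genes were examined in RNA from pancreatic islets of wild-type C57BL/6 mice. The comparison was between 3 libraries given the ligand insB:9-23, which is the name of an insulin B chain peptide known as a target of islet autoimmunity, and 3 libraries given vehicle. The 38 genes were taken by symbol from a list made for this purpose, and all 38 were found among the 55421 gene IDs of the count tables. All 38 passed the filter on low counts that left 17016 genes for testing. A set of 29 genes best known as targets of type I interferon (the type I set, which also took genes that both interferons induce) was kept apart from 9 genes best known as targets of gamma interferon (the gamma set). The sources used here do not settle whether mice or isolated islets received the ligand, nor do they give the dose, the duration, the age of the animals or how many mice stand behind a library.

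Interferons are secreted proteins that cells release on sensing a virus or on immune activation. Type I interferons signal through the kinases JAK1 and TYK2 to ISGF3, a complex that holds STAT2 and IRF9 and binds the interferon-stimulated response element (ISRE) in promoters. Gamma interferon, a product of T and NK cells, signals through JAK1 and JAK2 to a STAT dimer that binds the gamma-activated site (GAS). In islets this response has been studied as an early feature of type 1 diabetes, in which beta cells raise antiviral genes, chemokines and immune checkpoint ligands.

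The libraries carried 52052808 to 58880189 counts each. Of the beta cell markers, Ins1 and Ins2 were the most abundant, while Mafa was listed at 0 counts in all 6 libraries. Levels below are in CPM, counts scaled to a common library size with TMM factors, listed for replicates 1 to 3 of each group, and errors on means are SD over n = 3 libraries. The islet preparations also held exocrine RNA. The 6 acinar marker genes took 9.76%, 8.61% and 13.2% of counts in the insB:9-23 libraries and 8.11%, 8.60% and 9.16% in the vehicle libraries.

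No interferon-stimulated gene passed the test between the groups. With edgeR's quasi-likelihood test at an adjusted p of 0.05 over all genes, 0 of 38 were called, where 14 genes or 0.0823% of all genes tested were called (0.0294% higher and 0.0529% lower in insB:9-23 libraries). DESeq2 and limma-voom also called 0 of the 38, against 0.685% and 0.0999% of all genes. DESeq2 gave no adjusted p for Ifit2 and Ifit3, so it could not call them, and its percentage is of the 16927 genes with an adjusted p. At an unadjusted edgeR p below 0.05 there was 1 of the 38 (2.63%), lower in insB:9-23 libraries, against 5.55% of all genes (2.74% higher and 2.81% lower). The median log2 fold change (insB:9-23 over vehicle) was -0.01 over the 38 genes and 0.009 over all genes tested. A fold above 0 was found for 18 of the 38, against 51.5% of all genes.

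The libraries also set limits on the size of a difference. For 24 of the 38 genes (63.2%) the 95% interval of the fold lay within 2-fold in either direction, against 59% of all genes. The tightest was Dtx3l, a ubiquitin ligase partner of Parp9, with a log2 fold change of -0.03 and an interval of -0.22 to 0.16. The widest were Ifit1, Ifit2 and Ifit3, with intervals that ran from -5.91 at the low end to 7.05 at the high end. For those genes a large difference was not detectable in these libraries, which is not a sign that levels were alike.

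**Figure D1:**
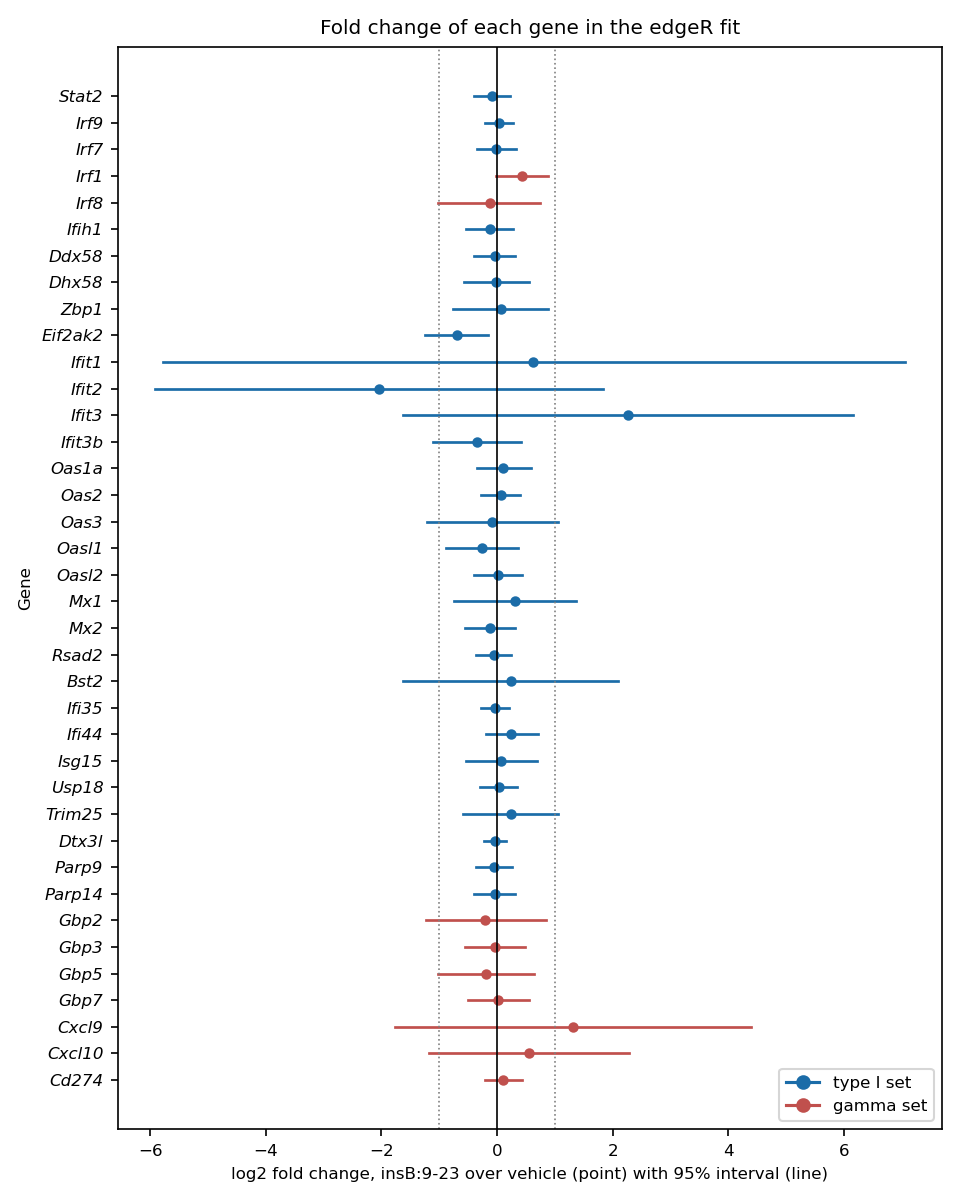
The log2 fold change of each of the 38 genes, insB:9-23 over vehicle, with its 95% interval from the edgeR fit; dotted lines mark 2-fold in either direction. Most intervals cross 0 inside the dotted lines, that of Eif2ak2 lies below 0 (-1.25 to -0.16), and those of Ifit1, Ifit2, Ifit3, Cxcl9, Cxcl10 and Bst2 are wide.

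The transducers and transcription factors of the response were expressed in every library. Stat2, the STAT protein particular to the type I pathway, stood at 41.8, 39.5 and 48.2 CPM in insB:9-23 libraries and at 50.9, 46.8 and 39.9 CPM in vehicle libraries. Irf9, its DNA-binding partner in ISGF3, stood at 42.5, 38.8 and 46.2 CPM in insB:9-23 libraries and at 43.9, 42.9 and 38 CPM in vehicle libraries. For both genes the groups overlapped, with log2 fold changes of -0.09 ± 0.12 and 0.03 ± 0.10 (SE). Irf7, which amplifies the type I response, averaged 25.6 ± 3.92 CPM in insB:9-23 libraries and 25.8 ± 2.17 CPM in vehicle libraries. Irf8, a factor of macrophages, dendritic cells and B cells, averaged 4.61 ± 2.28 CPM in insB:9-23 libraries and 5.06 ± 0.566 CPM in vehicle libraries.

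Irf1, a primary target of gamma interferon and itself an activator of further target genes, was the single gene of the 38 whose groups did not overlap. It stood at 41.6, 52.2 and 41.1 CPM in insB:9-23 libraries and at 38.9, 25.5 and 35.4 CPM in vehicle libraries. Every insB:9-23 library was above every vehicle library, a pattern that 6.4% of all genes showed in this direction and 13.5% in either. The log2 fold change was 0.43 ± 0.19 (SE, 95% interval -0.02 to 0.89), and it missed the threshold (edgeR adjusted p = 0.88, unadjusted p = 0.058). The gene (ENSMUSG00000018899) lies on chromosome 11 (GRCm38, 53770014 to 53778374, plus strand).

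Among the sensors of foreign nucleic acid, Eif2ak2 had the smallest p of the 38 genes. It encodes PKR, a kinase that is activated by double-stranded RNA and halts translation. Its levels were 16.8, 23.6 and 17.2 CPM in insB:9-23 libraries and 23.2, 34.0 and 36.6 CPM in vehicle libraries. The insB:9-23 libraries were low except replicate 2, which lay just above vehicle replicate 1, so the groups overlapped. The log2 fold change was -0.70 ± 0.22 (SE), with an unadjusted p of 0.020 and an edgeR adjusted p of 0.88. Leaving out any 1 library kept it between -0.88 and -0.58. The gene (ENSMUSG00000024079) lies on chromosome 17 (GRCm38, 78852564 to 78882573, minus strand).

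The other sensors differed less. Ifih1, the long double-stranded RNA sensor MDA5, averaged 25.1 ± 5.18 CPM in insB:9-23 libraries and 27.4 ± 1.59 CPM in vehicle libraries. Ddx58, the sensor RIG-I, had a log2 fold change of -0.04 ± 0.14 (SE), and Dhx58, the regulator LGP2, one of -0.01 ± 0.23 (SE). Zbp1, a sensor of Z-form nucleic acid, averaged 3.34 ± 1.35 CPM in insB:9-23 libraries and 3.19 ± 0.632 CPM in vehicle libraries. Of these 5 sensors, 4 had an interval within 2-fold, and the median log2 fold change of the 5 was -0.04.

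Ifit1, Ifit2 and Ifit3 of the IFIT family, whose proteins bind foreign RNA, were the most uneven of the 38 from library to library, and the unevenness did not follow the groups. Ifit1 had 633, 0 and 611 counts in insB:9-23 libraries and 0, 0 and 833 counts in vehicle libraries. In CPM these were 10.8, 0 and 13.3 in insB:9-23 libraries and 0, 0 and 15.6 in vehicle libraries. Each group thus held libraries at 0, where a count of 0 allows up to 0.0534 CPM in insB:9-23 replicate 2 and 0.0475 and 0.0481 CPM in vehicle replicates 1 and 2. Such limits cover counting error only. The fitted log2 fold change was 0.63, and leaving out 1 library gave 0.04 to 1.22 except without vehicle replicate 3. Without that library no vehicle library held a count, and the fitted 11.85 depends on the prior count and is no bound.

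Ifit2 stood at 1.40, 0.285 and 0.590 CPM in insB:9-23 libraries and at 0.206, 8.93 and 0.281 CPM in vehicle libraries. Vehicle replicate 2 alone was high, and without it the log2 fold change of -2.04 turned to 1.63. Ifit3 stood at 0.563, 0.391 and 10.5 CPM in insB:9-23 libraries and at 1.88, 0.272 and 0.206 CPM in vehicle libraries. Here insB:9-23 replicate 3 alone was high, and without it the log2 fold change of 2.27 turned to -0.72. The edgeR adjusted p was 0.98 for Ifit1, 0.90 for Ifit2 and 0.89 for Ifit3.

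Ifit3b, a close copy of Ifit3, was even by comparison. It stood at 4.18, 7.83 and 4.57 CPM in insB:9-23 libraries and at 8.96, 5.50 and 6.60 CPM in vehicle libraries. The groups overlapped, with a log2 fold change of -0.34 ± 0.31 (SE, edgeR adjusted p = 0.91). The copies share 51.2% of the 50-base stretches of the Ifit3 transcripts, so the counting could have split or dropped reads between them and both levels are uncertain. All 4 genes lie in 1 cluster on chromosome 19 (GRCm38, plus strand): Ifit2 at 34550694 to 34576419, Ifit3 at 34583531 to 34588731, Ifit3b at 34607970 to 34613401 and Ifit1 at 34640871 to 34650009.

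The promoters of 3 of these genes are shown because Ifit3 and Ifit3b carry the same stretch while their levels differed across libraries, and because Ifit1 carries the same kind of element and was at 0 in some libraries. The letters are RefSeq sequence of GRCm38.p6, 5′ to 3′ on the plus strand, with matches to the ISRE core in capitals. The core was searched on both strands as GAAA, 2 free bases and GAAA again, which on the opposite strand reads TTTC, 2 free bases and TTTC.
Ifit3: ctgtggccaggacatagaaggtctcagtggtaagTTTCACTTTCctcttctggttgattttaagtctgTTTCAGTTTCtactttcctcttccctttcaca
Ifit3b: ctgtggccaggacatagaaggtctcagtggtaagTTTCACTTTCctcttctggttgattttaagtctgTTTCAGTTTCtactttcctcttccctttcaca
Ifit1: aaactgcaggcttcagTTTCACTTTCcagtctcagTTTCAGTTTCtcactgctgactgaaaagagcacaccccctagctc
The Ifit3 stretch is chr19:34583339-34583438, the Ifit3b stretch chr19:34607735-34607834 and the Ifit1 stretch chr19:34640769-34640848. The Ifit3 and Ifit3b stretches are identical in 100 of 100 bases. Beyond these printed stretches the promoters differ: the best ungapped alignment of the full upstream windows matched in 188 of 218 bases. Each of the 3 genes carries the core 2 times upstream of its start.

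Swings of this size were counted over all genes by a measure chosen after the values were seen. With the highest library at 5 CPM or more and at least 10 times the lowest, 4 of the 38 genes qualified (10.5%), namely Ifit1, Ifit2, Ifit3 and Cxcl9, against 2.45% of all genes tested. Smaller steps occurred too. Bst2, which encodes tetherin, a protein that holds budding virus at the cell surface, stood at 8.86, 8.18 and 30.6 CPM in insB:9-23 libraries and at 7.87, 6.91 and 25.6 CPM in vehicle libraries. Replicate 3 of each group was high and the other 4 libraries lay between 6.91 and 8.86 CPM. Trim25, a ubiquitin ligase that acts with RIG-I, stood at 102, 98.8 and 112 CPM in insB:9-23 libraries and at 46.1, 111 and 108 CPM in vehicle libraries. Vehicle replicate 1 alone was low, and without it the log2 fold change of 0.24 became -0.07.

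**Figure D2:**
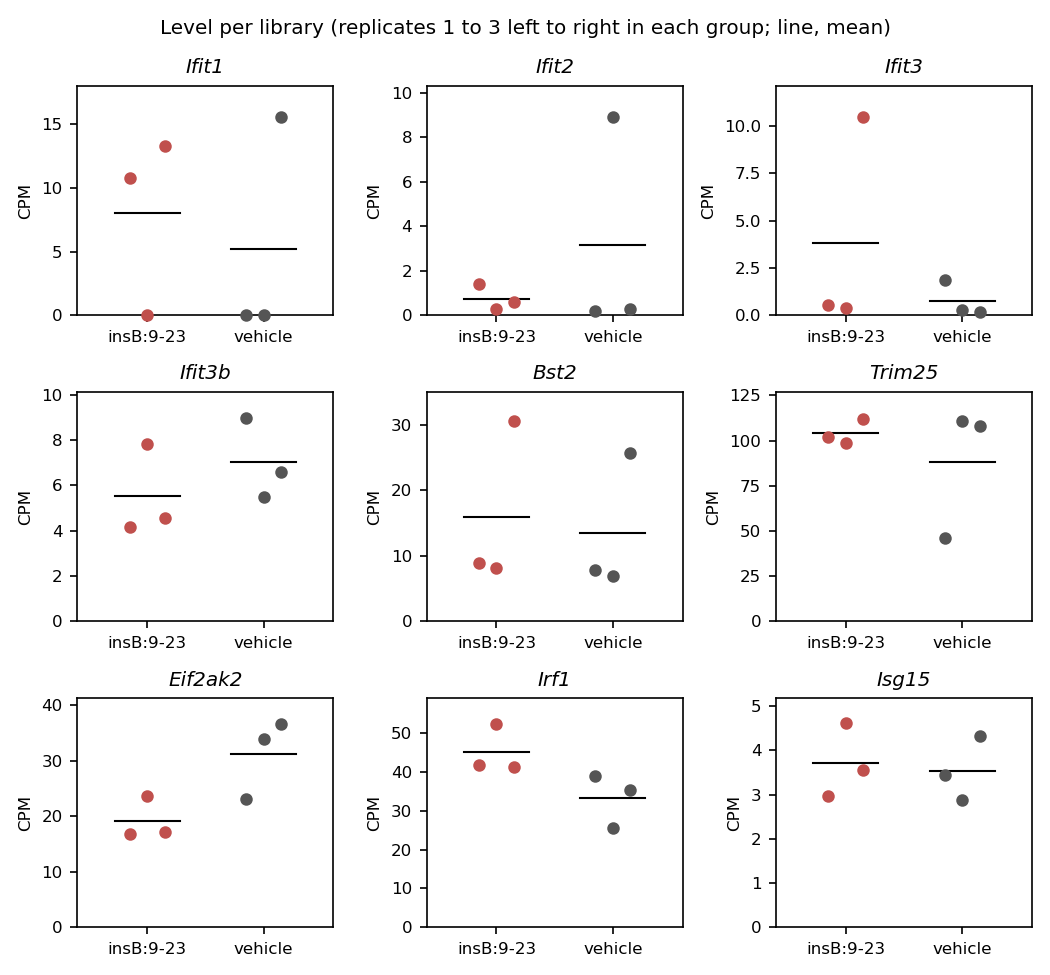
Levels in CPM of 9 genes in each library, insB:9-23 left of vehicle, with replicates 1 to 3 from left to right and a line at each group's mean. Ifit1 is at 0 in 1 insB:9-23 library and 2 vehicle libraries, Ifit2 and Ifit3 are each high in 1 library, and Bst2 is high in replicate 3 of both groups.

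A neighbouring pair on chromosome 12 showed the same contrast between even and uneven genes. Rsad2, which encodes viperin, an antiviral enzyme, stood at 25.7, 25.8 and 30.5 CPM in insB:9-23 libraries and at 31.2, 24.8 and 29.7 CPM in vehicle libraries. Cmpk2, a mitochondrial kinase gene next to it that is not one of the 38 and was chosen after its values were seen, stood at 43.5, 12.8 and 42.1 CPM in insB:9-23 libraries and at 15.6, 16.0 and 45.4 CPM in vehicle libraries. The 3 libraries with high Cmpk2 were the 3 with counts for Ifit1. Rsad2 lies at 26442746 to 26456452 on the minus strand and Cmpk2 at 26469204 to 26479837 on the plus strand (GRCm38), and neither overlaps an exon of another gene.

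The OAS genes, whose products make the messenger that activates RNase L or are inactive relatives of such enzymes, gave no called difference. Their median log2 fold change was 0.02 over 5 genes, from -0.26 for Oasl1 to 0.11 for Oas1a. Oasl1 stood at 2.82, 4.64 and 3.12 CPM in insB:9-23 libraries and at 4.46, 3.51 and 4.68 CPM in vehicle libraries. The groups overlapped. Oas3 varied more, at 0.956, 2.74 and 1.18 CPM in insB:9-23 libraries and 1.74, 1.31 and 2.12 CPM in vehicle libraries. Its groups overlapped, and it was the OAS gene whose 95% interval (-1.22 to 1.05) did not lie within 2-fold. Oas1a shares 57.6% of its 50-base stretches with Oas1g, so its level is uncertain. Per length, Oas3 stood at 0.230 CPM per kilobase of exon in insB:9-23 libraries and 0.244 in vehicle libraries, the lowest of the 38 by the mean of all 6 libraries (0.237), though Ifit2 was lower in the insB:9-23 libraries (0.193).

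The other antiviral effectors gave no called difference. Mx1, which belongs to a family of antiviral GTPases, averaged 2.62 ± 1.09 CPM in insB:9-23 libraries and 2.12 ± 0.938 CPM in vehicle libraries. Mx2, its relative, had a log2 fold change of -0.12 ± 0.18 (SE). Ifi44 stood at 6.88, 6.19 and 8.32 CPM in insB:9-23 libraries and at 6.81, 5.16 and 5.96 CPM in vehicle libraries. Its groups overlapped, with a log2 fold change of 0.25 ± 0.18 (SE, edgeR adjusted p = 0.89). Ifi35 had one of -0.03 ± 0.10 (SE), and 16.8% of its exonic bases are overlapped by other genes, most of them by Gm11626 on the opposite strand.

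Genes of protein tagging were likewise close between the groups. Isg15, the ubiquitin-like protein that is joined to other proteins in this response, stood at 2.97, 4.62 and 3.56 CPM in insB:9-23 libraries and at 3.44, 2.87 and 4.31 CPM in vehicle libraries. The groups overlapped throughout, with a log2 fold change of 0.07 and a 95% interval of -0.54 to 0.69. Usp18, which removes ISG15 and restrains the type I receptor, averaged 23.0 ± 3.60 CPM in insB:9-23 libraries and 22.5 ± 0.467 CPM in vehicle libraries. Parp9 and Dtx3l, which work as a pair and overlap head to head on chromosome 16, had log2 fold changes of -0.05 ± 0.13 and -0.03 ± 0.08 (SE). Parp14, an ADP-ribose transferase, stood at 48.2, 41.4 and 48.5 CPM in insB:9-23 libraries and at 46.6, 39.8 and 55.8 CPM in vehicle libraries, and the groups overlapped.

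Isg15 and Bst2 show the element in its overlapping form, with capitals for ISRE core matches that run into each other (RefSeq, GRCm38.p6, minus strand, 5′ to 3′).
Isg15: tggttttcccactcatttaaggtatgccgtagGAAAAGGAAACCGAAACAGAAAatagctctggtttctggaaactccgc
Bst2: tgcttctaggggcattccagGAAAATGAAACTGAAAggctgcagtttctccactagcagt
The Isg15 stretch is chr4:156200849-156200928 and the Bst2 stretch chr8:71537563-71537622. The Isg15 promoter carries the element with 3 overlapping cores at a level between 2.87 and 4.62 CPM in all 6 libraries.

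As a set, the listed gamma genes stood highest in a single library, insB:9-23 replicate 2, and not across its group. Irf1 differed from this, with every insB:9-23 library above every vehicle library. The gamma set had a median log2 fold change of 0.02, against -0.01 for the type I set. In insB:9-23 replicate 2, 8 of the 9 gamma set genes reached their highest level of the 6 libraries, against 9 of the 29 type I set genes. Expressed as the median over genes of log2(CPM + 0.5) minus the gene's mean over the 6 libraries, the gamma set stood at -0.22, 0.44 and -0.34 in insB:9-23 libraries and at 0.18, -0.21 and -0.05 in vehicle libraries. The type I set stood at -0.19, 0.07 and 0.05 in insB:9-23 libraries and at 0.07, -0.07 and 0.02 in vehicle libraries. The same median over all genes tested was 0.01 in insB:9-23 replicate 2. In insB:9-23 replicate 1, 13 of the 29 type I set genes were at their lowest. The share of all genes that were highest or lowest in each library was not counted.

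Cxcl9, a chemokine that draws in activated T cells, stood at 0.341, 5.34 and 0.284 CPM in insB:9-23 libraries and at 1.28, 0.385 and 0.731 CPM in vehicle libraries. Cxcl10, which acts on the same receptor, stood at 2.29, 8.57 and 3.43 CPM in insB:9-23 libraries and at 5.73, 2.58 and 1.39 CPM in vehicle libraries. For both, insB:9-23 replicate 2 was the highest library. Among the other 5 libraries the groups overlapped for Cxcl10, while for Cxcl9 both insB:9-23 libraries lay below every vehicle library. The log2 fold changes were 1.31 ± 1.24 and 0.56 ± 0.70 (SE, edgeR adjusted p = 0.91 and 0.93). Without insB:9-23 replicate 2 they turned to -1.35 and -0.18.

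Among guanylate-binding proteins, which attack vacuoles that hold pathogens, Gbp2 and Gbp5 stood out in insB:9-23 replicate 2, while Gbp3 and Gbp7 did not. Gbp2 stood at 4.34, 10.9 and 3.85 CPM in insB:9-23 libraries and at 7.35, 7.37 and 7.12 CPM in vehicle libraries. The insB:9-23 libraries lay on both sides of a narrow vehicle range. The log2 fold change was -0.20 ± 0.42 (SE), and without insB:9-23 replicate 2 it was -0.83 (edgeR adjusted p = 0.41). Gbp5 averaged 4.14 ± 1.81 CPM in insB:9-23 libraries and 4.72 ± 0.0353 CPM in vehicle libraries, with a log2 fold change of -0.19 ± 0.34 (SE). Gbp3 and Gbp7 had log2 fold changes of -0.04 ± 0.21 and 0.02 ± 0.22 (SE). Gbp3 stood at 13.6 CPM in insB:9-23 replicate 2 and at 13.5 CPM in vehicle replicate 1. Gbp7 was the gamma set gene that did not peak in insB:9-23 replicate 2, at 9.5 CPM there and 12.6 CPM in insB:9-23 replicate 1. Over the whole gamma set, leaving out insB:9-23 replicate 2 took the median log2 fold change to -0.23, with 3 of 9 above 0. Among further guanylate-binding protein genes outside both sets, Gbp4, Gbp6 and Gbp8 peaked in vehicle libraries and Gbp9 in insB:9-23 replicate 2.

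Cd274, which encodes the checkpoint ligand PD-L1, stood at 19.3, 24.9 and 22.2 CPM in insB:9-23 libraries and at 22.4, 18.2 and 20.7 CPM in vehicle libraries. Its groups overlapped, with a log2 fold change of 0.11 and a 95% interval of -0.21 to 0.44. Of its exonic bases, 14.1% are overlapped by another gene on the opposite strand, and the strand setting of the counting is not given in the sources used here.

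Summed levels of immune cell markers were also highest in insB:9-23 replicate 2. The 4 pan-leukocyte markers summed to 29.0, 78.8 and 20.4 CPM in insB:9-23 libraries and to 28.0, 26.9 and 28.0 CPM in vehicle libraries. The 7 B and plasma cell markers summed to 46.4, 154 and 10.9 CPM in insB:9-23 libraries and to 41.2, 22.3 and 29.0 CPM in vehicle libraries. The 9 T and NK cell markers summed to 2.90, 14.2 and 1.27 CPM in insB:9-23 libraries and to 2.39, 3.06 and 2.34 CPM in vehicle libraries. All markers in these 3 lists peaked in insB:9-23 replicate 2 except Laptm5 and Ncr1. The pan-leukocyte marker Laptm5 was nearly even, at 11, 10.6 and 10.1 CPM in insB:9-23 libraries and 9.89, 8.73 and 8.81 CPM in vehicle libraries. The NK cell marker Ncr1 had 0 counts in insB:9-23 replicate 2 and was highest in vehicle replicate 1, at 12 counts. None of the markers in these 3 lists, or in the list of 12 for macrophages and dendritic cells, was at 0 in all 6 libraries.

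The macrophage and dendritic cell list summed to 141, 211 and 105 CPM in insB:9-23 libraries and to 117, 133 and 139 CPM in vehicle libraries. Of its 12 genes, 6 peaked in insB:9-23 replicate 2 and 6 in vehicle libraries, and 2 were lowest in insB:9-23 replicate 2 (Mrc1 at 0.409 CPM and Cd68 at 2.38 CPM). Lyz2 took 61.8 CPM of the sum in that library. More immune cells and more RNA per such cell cannot be told apart in these bulk libraries. The part of immune cell RNA in the levels of the gamma set was not tested.

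**Figure D3:**
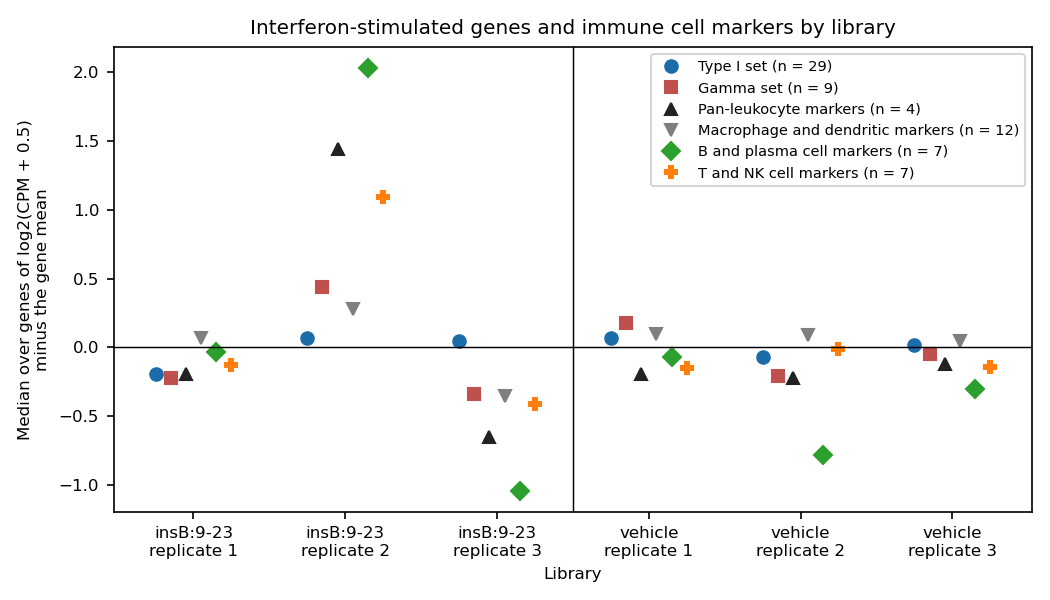
The median over genes of log2(CPM + 0.5) minus each gene's mean over 6 libraries, for both interferon sets and 4 immune marker lists, by library. In insB:9-23 replicate 2 the B and plasma cell, pan-leukocyte and T and NK cell lists stand highest (2.03, 1.44 and 1.09) with the gamma set at 0.44 and the type I set at 0.07. The T and NK cell value is over the 7 of 9 markers that passed the filter on low counts, without the NK cell markers Klrb1c and Ncr1.

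**Figure D4:**
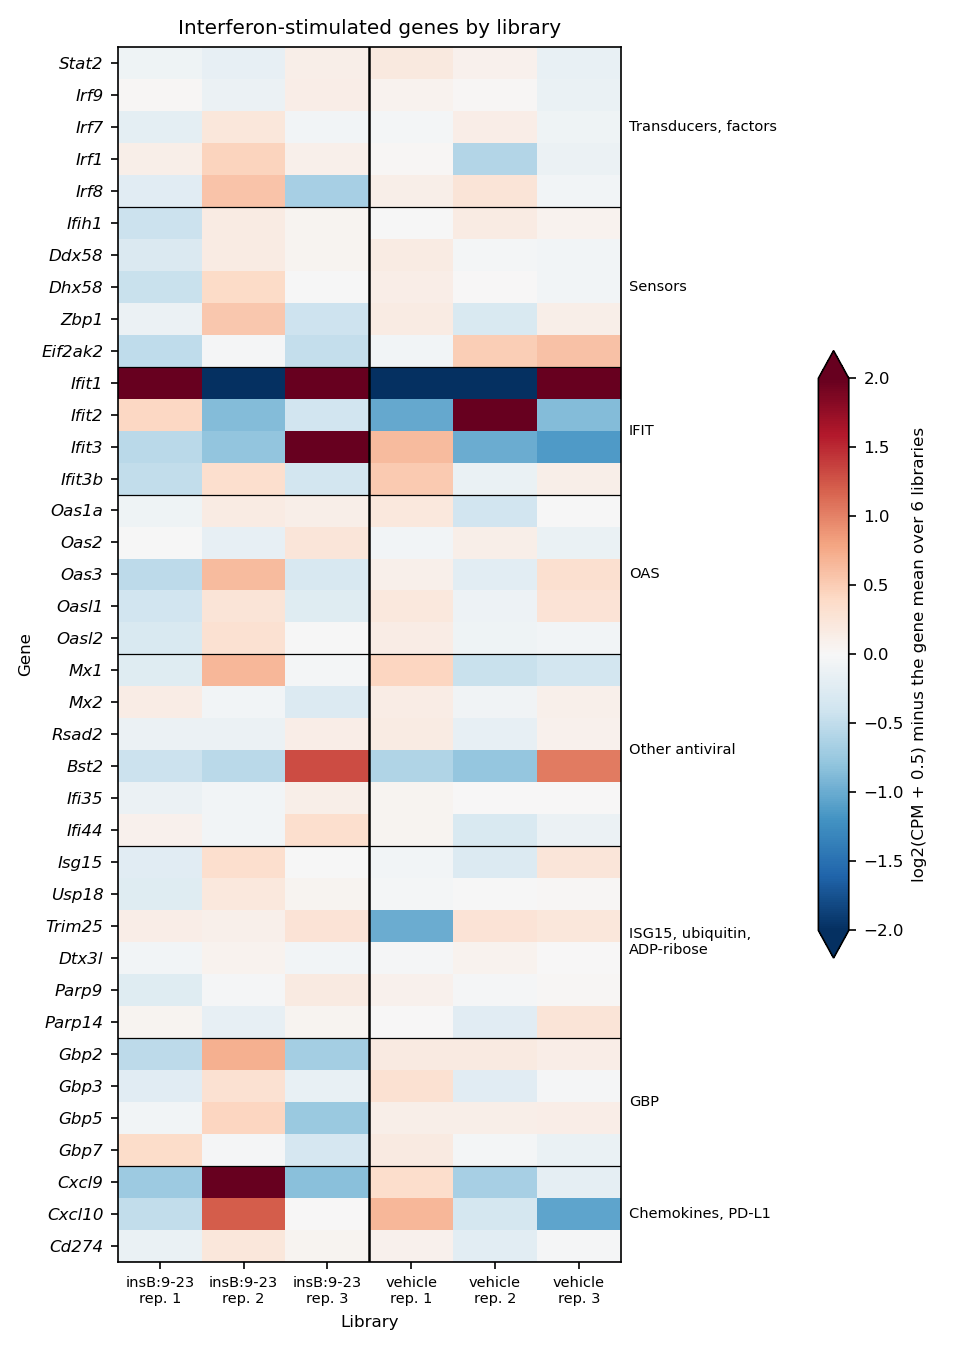
Each of the 38 genes by library as log2(CPM + 0.5) minus the gene's mean, red above and blue below, grouped by role, with the insB:9-23 libraries left of the vehicle libraries. No block of genes changes colour at the line between the groups, and Ifit1, Ifit2, Ifit3 and Bst2 change between single libraries. In insB:9-23 replicate 2 the gamma set genes Cxcl9, Cxcl10, Gbp2 and Irf8 are red. The type I set genes Mx1, Oas3 and Zbp1 are also red there, while others such as Ifit1 and Ifit2 are blue.

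Promoter sequence described the list without separating its sets. RefSeq promoter windows, 250 bases before to 50 after the start on GRCm38.p6, were found for 30 of the 38 genes (not Mx1, Mx2, Oas2, Dhx58, Usp18, Zbp1, Parp9 or Parp14). The ISRE core lay in a window of 17 of the 30 genes (56.7%), against 3.99% of the 27025 genes with a window. By set it lay in 12 of 21 type I genes and in 5 of 9 gamma genes. The GAS core, TTCNNNGAA, which reads the same on both strands, lay in 9 of 30 genes (30%), against 9.55% of all genes. It lay in 5 of 21 type I genes and 4 of 9 gamma genes. A match is a description of letters and not a binding site, and the windows of Eif2ak2, Ddx58 and Ifih1 had their ISRE core match after the start.

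Stretches of 3 gamma set promoters are given to set both motifs side by side (RefSeq, GRCm38.p6, plus strand, 5′ to 3′), with capitals for the ISRE core in Gbp2 and Gbp3 and for the GAS core in Irf1.
Gbp2: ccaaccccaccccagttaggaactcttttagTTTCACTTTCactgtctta
Gbp3: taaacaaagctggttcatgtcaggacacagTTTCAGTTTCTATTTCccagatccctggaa
Irf1: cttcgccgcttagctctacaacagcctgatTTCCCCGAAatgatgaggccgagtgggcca
They are chr3:142620573-142620622, chr3:142559969-142560028 and chr11:53769894-53769953. The Irf1 stretch belongs to the gene whose groups did not overlap, and the Gbp2 stretch to one that was high in insB:9-23 replicate 2.

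Per length of exon and by group mean, the most abundant of the 38 were Trim25 and Bst2, at 18.1 and 17.6 CPM per kilobase in insB:9-23 libraries and 15.4 and 14.9 in vehicle libraries. The Bst2 means rested on replicate 3 of each group, at 30.6 and 25.6 CPM, against 6.91 to 8.86 CPM in the other libraries. Irf1 followed Ifi35 in the vehicle libraries (8.37 and 10.2 CPM per kilobase) and stood above it in the insB:9-23 libraries (11.3 and 9.96). At the low end of the 38 were Oas3, Cxcl9, Ifit2, Mx1, Gbp5, Irf8 and Zbp1, each under 1 CPM per kilobase in both groups.

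The ligands of the pathway had few or no counts in these libraries. Of 21 interferon genes, 20 had 0 counts in all 6 libraries, among them Ifnb1 and every listed alpha interferon gene. A count of 0 allows up to 0.0475 to 0.0655 CPM, depending on the library, by counting error alone. It need not mean absence, since the beta cell marker Mafa was also at 0 in all 6 libraries. Sequence shared among the alpha interferon genes was not checked. Ifng, gamma interferon itself, had 5, 39 and 0 counts in insB:9-23 libraries and 9, 25 and 26 counts in vehicle libraries. Its groups overlapped (edgeR adjusted p = 0.98).

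Receptors and kinases were present and none was called. The 6 receptor genes had log2 fold changes of -0.09 to 0.18, and the intervals of all 6 lay within 2-fold. Ifnar1, a chain of the type I receptor, averaged 24.7 ± 7.71 CPM in insB:9-23 libraries and 25.2 ± 0.970 CPM in vehicle libraries. Ifngr1, a chain of the gamma receptor, averaged 17.4 ± 4.56 CPM in insB:9-23 libraries and 15.3 ± 3.55 CPM in vehicle libraries. Ifngr2, the other chain, averaged 9.94 ± 0.0452 CPM in insB:9-23 libraries and 9.41 ± 1.15 CPM in vehicle libraries. Jak1, the kinase common to both pathways, stood at 158, 163 and 162 CPM in insB:9-23 libraries and at 169, 179 and 179 CPM in vehicle libraries. Every insB:9-23 library was below every vehicle library, as for 7.12% of all genes, but the log2 fold change was small at -0.13 ± 0.05 (SE, edgeR adjusted p = 0.88). Jak2 averaged 34.4 ± 1.92 CPM in insB:9-23 libraries and 34.7 ± 0.901 CPM in vehicle libraries.

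Of 10 inhibitors of the pathway, 0 were called by edgeR and 1 (10%) had an unadjusted p below 0.05, against 5.55% of all genes. This was Socs3, a feedback inhibitor of JAK kinases, at 33.1, 30.3 and 37.4 CPM in insB:9-23 libraries and 23.3, 21 and 22.5 CPM in vehicle libraries. Every insB:9-23 library was above every vehicle library, as for 6.4% of all genes, with a log2 fold change of 0.59 ± 0.10 (SE, edgeR adjusted p = 0.38, unadjusted p = 0.0013). DESeq2, which called 0.685% of all genes, called it (adjusted p = 0.0024). Socs1, the inhibitor most tied to interferon signalling, had a log2 fold change of 0.34 and an edgeR adjusted p of 0.91. Ptpn11, a phosphatase, averaged 202 ± 10.6 CPM in insB:9-23 libraries and 216 ± 6.44 CPM in vehicle libraries (edgeR adjusted p = 0.88).

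Of the 15 names listed for sensing upstream of interferon, 14 matched a gene of the annotation and 0 were called. Tlr4, the receptor for bacterial lipopolysaccharide, stood at 0.188, 0.124 and 0.743 CPM in insB:9-23 libraries and at 1.14, 1.44 and 1.09 CPM in vehicle libraries. The insB:9-23 libraries were all lower, as for 7.12% of all genes, with a log2 fold change of -1.81 ± 0.71 (SE, edgeR adjusted p = 0.88, unadjusted p = 0.044). Tmem173 stood at 1.71, 4.5 and 1.22 CPM in insB:9-23 libraries and at 1.47, 1.2 and 1.2 CPM in vehicle libraries. Its groups overlapped, with a log2 fold change of 0.94 ± 0.52 (SE, edgeR adjusted p = 0.88). Tlr3, a receptor for double-stranded RNA, averaged 9.56 ± 0.568 CPM in insB:9-23 libraries and 10.9 ± 0.352 CPM in vehicle libraries (edgeR adjusted p = 0.88).

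Of 20 further interferon-stimulated genes outside the 38, 0 were called by edgeR and 0 had an unadjusted p below 0.05. Their median log2 fold change was 0.06, with 12 above 0. Ifi27 had the smallest p, at 95, 65.8 and 94.9 CPM in insB:9-23 libraries and 50.4, 51.3 and 82.4 CPM in vehicle libraries, and its groups overlapped (edgeR adjusted p = 0.88). Isg20, a nuclease, stood at 39.3, 29.2 and 30 CPM in insB:9-23 libraries and at 42.5, 37.1 and 37.6 CPM in vehicle libraries (edgeR adjusted p = 0.88). Groups did not overlap for 3 of the 20 (15%), a share near the 13.5% of all genes. They were Ifitm2 and Ifitm3, higher in insB:9-23 libraries, and Xaf1, lower, named after their values were seen. Ifitm3, which blocks virus entry, stood at 37.0, 37.4 and 54.5 CPM in insB:9-23 libraries and at 11.0, 30.4 and 35.5 CPM in vehicle libraries (edgeR adjusted p = 0.88). Ifitm2 stood at 20.5, 20.5 and 10.9 CPM in insB:9-23 libraries and at 0, 6.57 and 8.11 CPM in vehicle libraries (edgeR adjusted p = 0.90), and 40.9% of its exonic bases are overlapped by Gm45717.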

How the data were processed

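Gene counts of 6 islet RNA-seq libraries were analysed, 3 given insB:9-23 and 3 given vehicle, with groups and replicate numbers from the titles. The authors deposited whole-number read counts for Ensembl gene IDs, with 1 file for each library. Tools listed in the submitters' processing notes are HISAT, featureCounts 1.5.0-p3, DESeq 1.8.3 with build GRCm38, with no roles given, and the labels' protocols name a KAPA stranded kit. Symbols, positions and exon lengths came from GENCODE M21 on the same build. Genes kept by filterByExpr were scaled with TMM factors and tested with edgeR 4.0.16 (quasi-likelihood, robust) in R 4.3.3, with Benjamini-Hochberg adjustment over all 17016 genes. SE is the log2 fold change divided by the root of F, and 95% intervals use the fit's t quantile. DESeq2 1.42.0, limma-voom (limma 3.58.1), other scalings, filters and left-out libraries were alternatives. The code was tested on simulated counts. Since no label says that libraries came from separate animals, p-values reflect only how these libraries vary, and that variation may be technical. Within a group, libraries differed by a chi-square of 80.2 to 270.0 per degree of freedom, more than re-sequencing of 1 library would give. Separate preparations from 1 sample are not excluded by this.

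Members, sets and lists were chosen with earlier results of these data known. Levels per library were given for members with the 10 smallest p, those above 30 CPM on average, those at 0 in a library and the 5 with the largest range over libraries, and for other members (such as Bst2, Rsad2, Isg15 and Gbp2) chosen after their values were seen. From the pathway lists and the further interferon-stimulated genes the rule took genes past the threshold, the 2 with the smallest p, and ligands with any count. Other names from those lists, Tlr3 among them, were chosen after their values were seen. The rule was not applied to the cell type marker lists, whose named genes were also chosen after their values were seen.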

Additional observations from a re-analysis of the deposited data

How the results depend on the processing

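The number of interferon-stimulated genes called was 0 under all 14 alternatives run, though DESeq2 gave no adjusted p for Ifit2 and Ifit3. The range of the median log2 fold change of the 38 genes was -0.15 to 0.08. Of the 529 single-gene values under these alternatives, 496 moved by no more than the gene's SE in the main fit. That SE was large for Ifit1, Ifit2 and Ifit3 (2.59, 1.56 and 1.57). The direction was less stable: 9 of the 38 genes kept the sign of their log2 fold change under every alternative, and the rest changed sign under at least 1. With unscaled library totals the median log2 fold change was -0.15 over all genes, -0.15 over the type I set and -0.10 over the further interferon-stimulated genes. Over all genes, edgeR called 14, DESeq2 116 and edgeR with the replicate block 0. Leaving out 1 library at a time gave 16 to 26 called genes. It gave median log2 fold changes of -0.10 to 0.08 for the further interferon-stimulated genes, -0.23 to 0.13 for the gamma set and -0.08 to 0.08 for the type I set. No pairing by replicate number was seen over all genes. Same-numbered libraries had correlations of -0.032, -0.069 and -0.005 in their deviations from group means, and 0 of 6 libraries correlated best with its own number. These values cannot settle whether libraries were prepared in pairs, and Bst2 was high in replicate 3 of both groups. DESeq2 called Socs3 (adjusted p = 0.0024) while edgeR and limma-voom did not under any alternative (0.30 to 0.93). The cause of these differences was not tested. Depth limits what can be said of Ifng, with 0 to 39 counts a library. By counting error alone, a count of 0 allows up to 0.0655 CPM.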
